A study of Mus musculus with 96 samples.

Results

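The sirtuins are the family of NAD-dependent deacylases encoded in the mouse by Sirt1, Sirt2, Sirt3, Sirt4, Sirt5, Sirt6 and Sirt7. They were taken by gene name from a count table of bulk RNA sequencing, in which the 7 genes were 7 of 56748. The study behind the table asked how daily fasting changes liver, skeletal muscle and cerebral cortex, and it compared mice with free access to food (AL) with mice on intermittent fasting (IF). The male mice were C57BL/6, began the regimens at 6 weeks of age and followed them for 4 months, the IF mice going without food for 16 h of each day. Male AL mice carried the numbers 1 to 8 and male IF mice 9 to 16. Female AL mice were numbered 25 to 32 and female IF mice 33 to 40, and for them the labels gave sex and diet alone, with no strain, age or length of the regimen. The paper states that male IF mice were sampled at the end of the fasting window, though its span of sampling hours reached past that end. Feeding hours of male IF mice fell in the light phase, while male AL mice had food at all hours. Their difference therefore carries the regimen, the last fast and the hours of feeding together, which cannot be told apart. The male mice were perfused with PBS before their tissues were frozen.

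Sirtuins remove acetyl or longer acyl groups from lysines and use up NAD in doing so, which ties their activity to the NAD supply of the cell. SIRT1, SIRT6 and SIRT7 act mainly in the nucleus, SIRT2 mainly in the cytosol, and SIRT3, SIRT4 and SIRT5 in mitochondria. In liver, SIRT1 and SIRT3 are best known for their parts in gluconeogenesis and fatty acid oxidation during fasting. The counts report transcript levels of these enzymes and neither protein nor activity.

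Each of the 96 libraries held the raw read counts of 1 tissue of 1 mouse, and 95 were used. Library totals ran from 26097314 to 49838004 counts with a median of 36132954, and a sirtuin had between 92 and 9143 counts in a library, so every member was counted in every library used. The library left out was cortex of male AL mouse 1. It held 213.3 CPM (counts scaled to a library total of 1000000) of Xist, the X-inactivation transcript of female cells, against 0 to 0.2289 in the other 15 male cortex libraries and 185.1 to 336.7 in the 16 female ones. Its counts of the Y-linked genes Ddx3y, Uty, Kdm5d and Eif2s3y were 0. Of the other 31 cortex libraries it was closest to that of female IF mouse 40, with a chi-square per degree of freedom over genes of 4.293, where the other 465 pairs of cortex libraries began at 7.764. Male AL cortex therefore had n = 7 and each of the other 11 groups n = 8. Marker genes fitted the labelled tissues: the summed CPM of 6 hepatocyte markers was 61676 ± 9077 (SD, n = 8) in male AL liver, that of 6 muscle fibre markers 124780 ± 2817 (SD, n = 8) in male AL muscle, and that of 6 neuron markers 7972 ± 401.2 (SD, n = 7) in male AL cortex. In male AL liver the fibre markers summed to 0.583 ± 0.6246 CPM and the neuron markers to 7.005 ± 1.83.

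By mean CPM in male AL mice, liver held the most Sirt7 and Sirt3 and cortex the most Sirt6, and muscle lay below every liver and cortex library for 5 of the 7 sirtuins. Sirt7, a nucleolar enzyme linked to ribosomal RNA transcription, had the widest spread over tissues, with 189.2 ± 27.7 CPM in liver (SD, n = 8), 75.9 ± 4.87 in cortex (n = 7) and 8.78 ± 0.725 in muscle (n = 8). Its 3 ranges lay apart, at 146.5 to 223.8, 71.0 to 82.7 and 7.99 to 10.3 CPM. Sirt3, the main deacetylase of the mitochondrial matrix, followed the same order, with 61.3 ± 5.92 CPM in liver, 50.6 ± 5.15 in cortex and 15.6 ± 1.29 in muscle. Liver and cortex overlapped for Sirt3 (49.7 to 67.5 and 42.4 to 59.0 CPM), and muscle lay below both. Sirt6, a chromatin deacetylase that acts at telomeres and in DNA repair, ran from 28.6 ± 1.86 CPM in cortex through 11.7 ± 2.197 in liver to 5.34 ± 0.501 in muscle, with no overlap between neighbours. Sirt2, which deacetylates tubulin and is abundant in myelinating cells, was lowest in liver at 78.6 ± 8.46 CPM, against 142.7 ± 8.75 in muscle and 176.9 ± 15.5 in cortex. The ranges of Sirt2 in muscle and cortex overlapped (132.5 to 160.8 and 155.9 to 203.0 CPM).

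Sirt1, Sirt4 and Sirt5, like Sirt6 in liver and muscle, came in small amounts. Sirt1, the nuclear deacetylase of PGC-1α, FOXO proteins and p53, had 13.2 ± 1.28 CPM in cortex and 11.7 ± 2.77 in liver, which did not differ beyond their spread, and 4.95 ± 0.95 in muscle, below every library of the other tissues. Sirt4, a mitochondrial lipoamidase and ADP-ribosyltransferase, had 20.8 ± 3.60 CPM in liver and 20.03 ± 2.85 in cortex, again within their spread, and 7.31 ± 1.09 in muscle. Sirt5, the mitochondrial enzyme that removes succinyl and malonyl groups, was highest in liver at 17.0 ± 3.01 CPM, while cortex (10.3 ± 1.16) and muscle (9.98 ± 1.04) did not differ beyond their spread. In female AL mice the order of the mean CPM was the same for Sirt2, Sirt3, Sirt6 and Sirt7. Female Sirt5 stood at 14.4 ± 2.09 CPM in liver, 12.4 ± 0.859 in cortex and 9.14 ± 0.991 in muscle (SD, n = 8 each), with an overlap of liver and cortex. Female Sirt4 had 19.1 ± 2.25 CPM in cortex and 18.8 ± 3.63 in liver, and female Sirt1 14.2 ± 3.16 in liver and 11.3 ± 1.38 in cortex, both pairs within their spread. Muscle had the lowest mean of both genes in female mice as well, at 8.67 ± 1.22 CPM for Sirt4 and 7.46 ± 1.08 for Sirt1.

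Tests of the tissue differences used edgeR's quasi-likelihood test with the mouse as a block, Benjamini-Hochberg adjustment over all genes tested and a call at an adjusted p under 0.05. All 7 sirtuins were called in male AL mice for muscle against liver, where 76.1% of all genes tested were called, for cortex against liver (82.0% of all genes) and for cortex against muscle (78.0%). Shares so near the background say little about the family, and the scale decides several of the directions. The fit scales libraries by trimmed means (TMM); with library totals in place of TMM the median log2 difference of all genes moved by -0.14 for muscle against liver, 0.79 for cortex against liver and 0.99 for cortex against muscle. Genes called higher and lower numbered 9965 and 7760 for cortex against liver with TMM but 12888 and 5178 with totals, and for cortex against muscle 9706 and 7145 with TMM but 13691 and 3901 with totals.

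On both scales Sirt7 and Sirt3 were higher in liver than in cortex and higher in cortex than in muscle, Sirt6 was highest in cortex and lowest in muscle, and Sirt2 was lowest in liver. The TMM log2 difference of Sirt7 was -4.21 ± 0.11 (SE, adjusted p = 3.68e-27) for muscle against liver and -2.12 ± 0.10 (adjusted p = 2.05e-19) for cortex against liver. For Sirt2 it was 1.08 ± 0.076 (adjusted p = 6.60e-15) for muscle against liver. Between cortex and muscle the direction of Sirt2 depended on the scale, with -0.69 ± 0.079 by TMM (adjusted p = 1.55e-09) and 0.31 ± 0.084 by totals (adjusted p = 0.00106). The same held for Sirt5 between cortex and muscle (-0.98 ± 0.12, adjusted p = 8.03e-09 by TMM; 0.02 ± 0.12, adjusted p = 0.884 by totals) and for Sirt1 between cortex and liver (-0.59 ± 0.12, adjusted p = 3.95e-05; 0.20 ± 0.13, adjusted p = 0.149). Sirt4 was lower in cortex than in liver by TMM (-0.87 ± 0.12, adjusted p = 2.33e-08), a call that ended with totals (-0.08 ± 0.12, adjusted p = 0.528). Over the 3 alternatives to each of these fits the adjusted p ran from 3.97e-12 to 0.00106 for Sirt2, from 9.94e-10 to 0.884 for Sirt5, from 9.67e-06 to 0.149 for Sirt1 and from 7.76e-09 to 0.528 for Sirt4.

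Female AL mice had 7 sirtuins called for muscle against liver (77.1% of all genes), 7 for cortex against liver (83.0%) and 6 for cortex against muscle (78.7%), the exception being Sirt1 at -0.27 ± 0.13 (adjusted p = 0.0554). Library totals moved the median of all genes by -0.17, 0.60 and 0.86 in these comparisons. They turned the female cortex against muscle difference of Sirt1, Sirt2 and Sirt5 to above 0 and that of Sirt4 between cortex and liver to 0.04 ± 0.11 (adjusted p = 0.760). Female Sirt5 lost its call between cortex and liver with totals (-0.21 ± 0.11, adjusted p = 0.0734), which left 5 of 7 called there. Over all genes, calls higher and lower went from 10102 and 7570 to 12418 and 5534 for cortex against liver and from 9532 and 7233 to 13227 and 4161 for cortex against muscle. Sirt7 was again the member with the widest difference, at -3.77 ± 0.11 for muscle against liver (adjusted p = 2.36e-25). Female Sirt3 differed by -2.28 ± 0.10 (adjusted p = 9.47e-21) between muscle and liver, and the male difference was -1.76 ± 0.11 (adjusted p = 1.12e-16). Whether the sexes differ in these tissue contrasts was not tested.

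**Figure D1:**
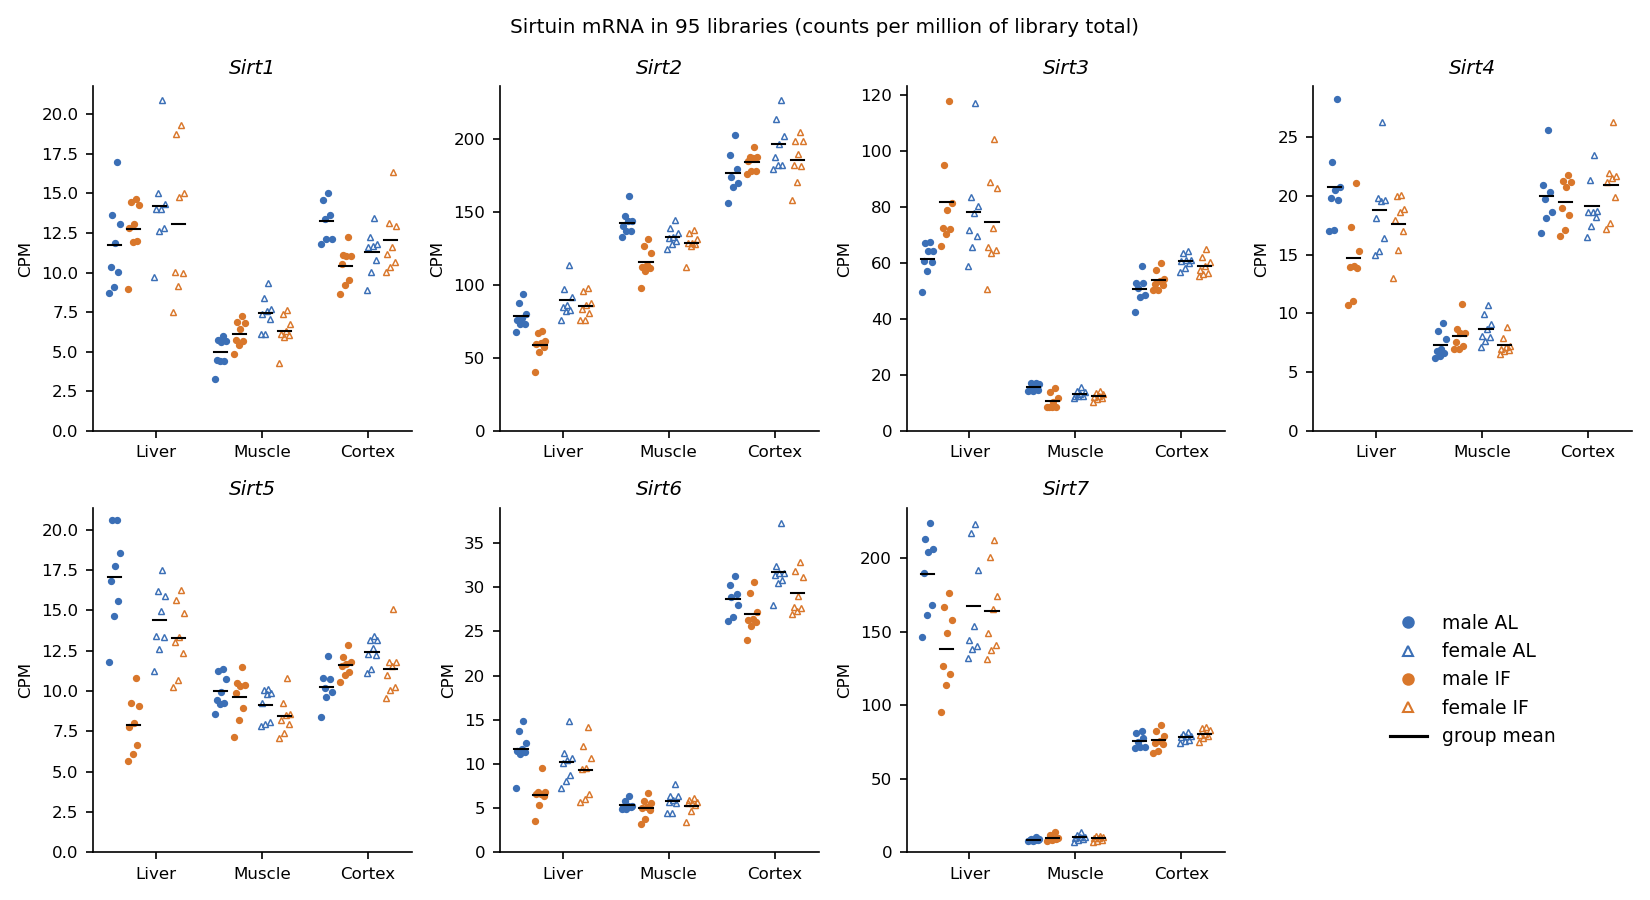
CPM of each sirtuin (linear axis, a scale of its own for each gene) in the 95 libraries of liver, muscle and cortex; points are libraries, filled for male and open for female mice, blue for AL and orange for IF, and black bars are group means. In male AL mice Sirt7 runs from a mean of 189.2 CPM in liver to 8.78 in muscle, and in male liver all 8 IF libraries of Sirt5 lie below all 8 AL libraries.

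Levels of different genes were compared as CPM per kilobase of the gene length in the count table, where each member's level was taken as a share of the sum over the 7. In male AL liver Sirt7 made up 45.5 ± 2.93% of the summed sirtuin mRNA per length (SD, n = 8), followed by Sirt2 (19.5 ± 1.91%), Sirt3 (12.9 ± 1.77%), Sirt4 (10.8 ± 1.45%), Sirt6 (5.21 ± 0.698%), Sirt5 (3.51 ± 0.793%) and Sirt1 (2.73 ± 0.589%). The ranges of Sirt3 and Sirt4, of Sirt6 and Sirt5 and of Sirt5 and Sirt1 overlapped on that scale, and each pair kept its order in 7 of 8 libraries. With merged exon lengths of GENCODE in place of the table's, Sirt7 and Sirt2 still led but the order of the means below them changed, to Sirt4 (10.5%), Sirt3 (9.87%), Sirt1 (2.90%), Sirt5 (2.59%) and Sirt6 (2.46%). Among these, Sirt3 lay above Sirt1 in 8 of 8 libraries, with ranges apart. The other neighbours overlapped: Sirt4 was above Sirt3 in 6 of 8, Sirt1 above Sirt5 in 5 of 8 and Sirt5 above Sirt6 in 3 of 8. Male AL muscle was a Sirt2 tissue: this cytosolic enzyme took 70.5 ± 1.57% of the sum (n = 8), and the next, Sirt4, took 7.60 ± 1.19%. Cortex of male AL mice was led by Sirt2 at 43.3 ± 2.66% (n = 7), with Sirt7 at 18.2 ± 1.20% and Sirt6 at 12.7 ± 0.836%. The order of Sirt3 and Sirt4 in cortex depended on the length used, as Sirt3 was the higher in 4 of 7 libraries with the table's lengths and Sirt4 in 7 of 7 with GENCODE lengths. The place of Sirt6 in cortex rests on its length, for which the table has 2785 bases and GENCODE 6665: with GENCODE lengths its share was 6.33 ± 0.460%, below Sirt4 (10.6%) and Sirt3 (8.47%). The summed level per length was 80.5 ± 7.59 CPM per kilobase in liver, 81.1 ± 3.73 in cortex and 40.2 ± 1.81 in muscle. These sums are scaled by library totals and set no order of cortex against the other tissues. Totals and TMM lay 0.99 log2 apart in the median of all genes for cortex against muscle and 0.79 for cortex against liver. For muscle against liver the median moved by -0.14, which is small beside the gap between sums of 40.2 and 80.5, with muscle the lower. The leading member of each tissue was the same in female AL mice, with 40.5 ± 3.28% for Sirt7 in liver and 67.4 ± 1.74% and 44.3 ± 2.33% for Sirt2 in muscle and cortex (n = 8 each).

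**Figure D2:**
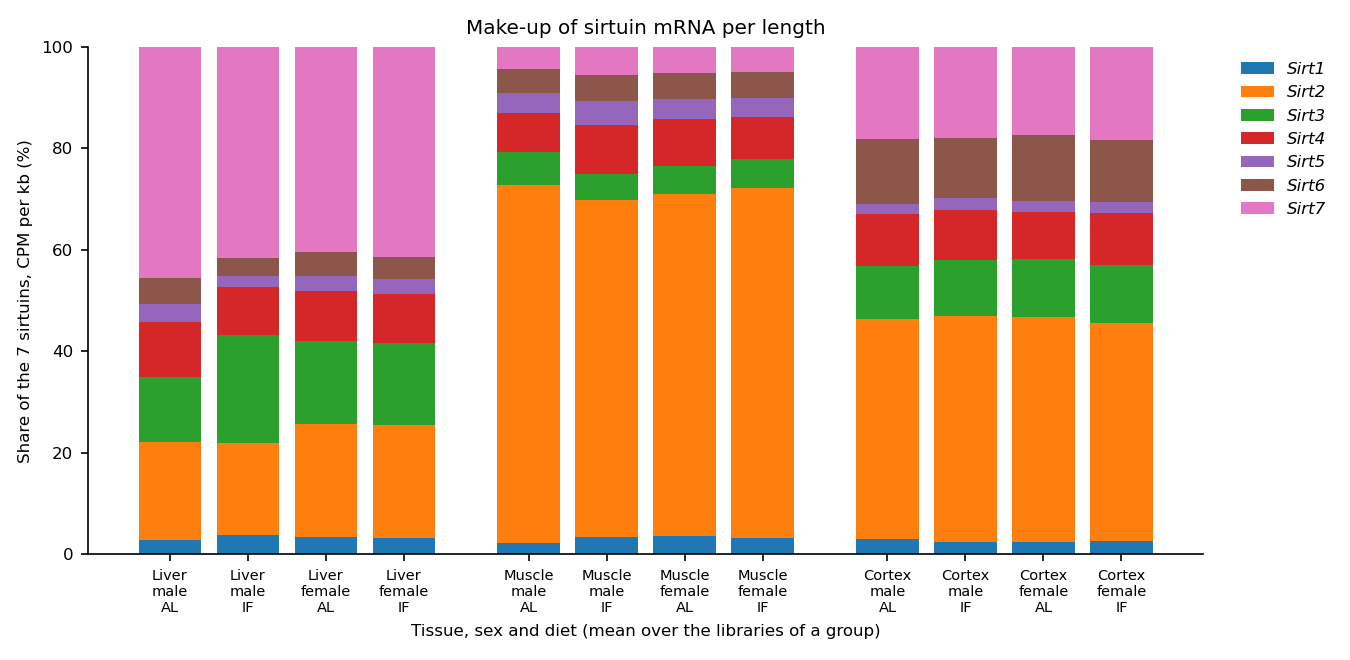
Share of each sirtuin in the summed sirtuin mRNA, per length (stacked percent, group means), in each tissue, sex and diet. Sirt2 takes 70.5% in male AL muscle and Sirt7 45.5% in male AL liver, and the Sirt3 share of male liver is 12.9% in AL and 21.2% in IF mice.

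Most sirtuin transcripts were lower in the liver of male IF mice than in that of male AL mice. Sirt2, Sirt4, Sirt5, Sirt6 and Sirt7 fell, Sirt3 rose, and Sirt1 did not pass the test. Thus 5 of 7 were called lower, where 21.1% of all genes tested were, and 1 was called higher, where 23.5% were; together 6 of 7 were called against 44.6% of all genes (7234 of 16204). The directions of the 6 calls held with RLE size factors and with library totals. The median log2 difference was -0.55 for the sirtuins and 0.06 for all genes. The share of Sirt3 per length was 21.2 ± 2.03% in IF liver (SD, n = 8). Its order against Sirt2 there depended on the gene lengths: Sirt2 had 18.2% and Sirt3 21.2% with the table's lengths, but 19.2% and 16.5% with GENCODE exon lengths, and the ranges of the pair overlapped on both.

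Among the mitochondrial members Sirt5 fell the most. Its CPM had a lowest, median and highest value of 11.8, 17.3 and 20.6 in the 8 AL livers and of 5.69, 7.89 and 10.8 in the 8 IF livers. All 8 IF mice were below all 8 AL mice, and Sirt5 was the 1 sirtuin of 7 whose groups did not overlap in male liver, a separation shown by 14.6% of all genes. Its log2 difference was -1.20 ± 0.16 (SE, adjusted p = 1.14e-06), a fitted fold of 0.436. Sirt4 went from 17.0, 20.2 and 28.3 CPM (lowest, median, highest) to 10.7, 14.01 and 21.1. The IF mice were on the low side, 6 of 8 below every AL mouse, the groups overlapped, and the log2 difference was -0.60 ± 0.13 (adjusted p = 0.000770). Sirt3 moved the other way, from 49.7, 62.3 and 67.5 CPM to 66.1, 75.6 and 117.6, with 7 of 8 IF mice above every AL mouse. Its log2 difference of 0.30 ± 0.11 (adjusted p = 0.0256) was the weakest of the 6 calls.

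The call on Sirt3 in male liver was lost without AL mouse 2 (0.25, adjusted p = 0.0572), IF mouse 9 (0.19, adjusted p = 0.120), IF mouse 11 (0.27, adjusted p = 0.0584) or IF mouse 13 (0.24, adjusted p = 0.0793), and with no filter on low counts (0.27, adjusted p = 0.0643). Over its 23 alternatives the adjusted p ran from 0.00502 to 0.120 and the log2 difference stayed above 0. IF mouse 9 held the highest liver Sirt3, 117.6 CPM, and the highest summed erythrocyte markers, 6879 CPM. Sirt3 also shares its chromosome segment with other genes. Psmd13, a subunit of the proteasome lid, starts on the other strand 341 bases inside the annotated start of Sirt3, and its level in male liver rose from 17.3 ± 3.85 to 73.5 ± 9.23 CPM (2.0 ± 0.13, adjusted p = 4.26e-11). Ric8a, a chaperone of G protein alpha subunits that overlaps Sirt3 on the other strand, had 33.3 ± 4.70 and 46.4 ± 12.8 CPM (0.38 ± 0.12, adjusted p = 0.0113), and lost its call without IF mouse 13 (0.24, adjusted p = 0.0594; range over 23 alternatives 0.00335 to 0.0594). The libraries were strand-specific, but the strand setting of the counting was not stated, so the part of these neighbours in the Sirt3 counts was not tested.

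Of the nuclear members, Sirt6 fell the most in male liver. Its lowest, median and highest CPM were 7.32, 11.6 and 14.8 in AL and 3.56, 6.63 and 9.58 in IF mice. All 8 IF livers were below the AL median and 7 of 8 below every AL liver, with a log2 difference of -0.95 ± 0.15 (SE, adjusted p = 2.25e-05). Sirt7, the most abundant member of this tissue, ranged around medians of 197.1 CPM in AL mice (146.5 to 223.8) and 138.0 in IF mice (95.3 to 176.7). Every IF value lay below the AL median, with 4 of 8 below every AL mouse, and the log2 difference was -0.55 ± 0.11 (adjusted p = 0.000268). Mafg, whose gene overlaps Sirt7 on the same strand, had 147.6 ± 19.3 and 179.0 ± 26.1 CPM and was not called (0.18 ± 0.11, adjusted p = 0.173). Sirt1, the member most often linked to fasting, had 11.7 ± 2.77 CPM in AL and 12.8 ± 1.88 in IF livers (0.03 ± 0.13, adjusted p = 0.876). The cytosolic Sirt2 went from 67.5, 76.6 and 93.5 CPM to 40.6, 59.8 and 68.2, where 7 of 8 IF mice were below every AL mouse (-0.52 ± 0.095, adjusted p = 8.25e-05). Nfkbib, an NF-κB inhibitor whose gene overlaps Sirt2 on the other strand, had 21.8 ± 3.62 and 18.0 ± 2.32 CPM (-0.36 ± 0.12, adjusted p = 0.0131), a call lost with library totals (-0.27, adjusted p = 0.0623; range over 23 alternatives 0.00652 to 0.0623).

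**Figure D3:**
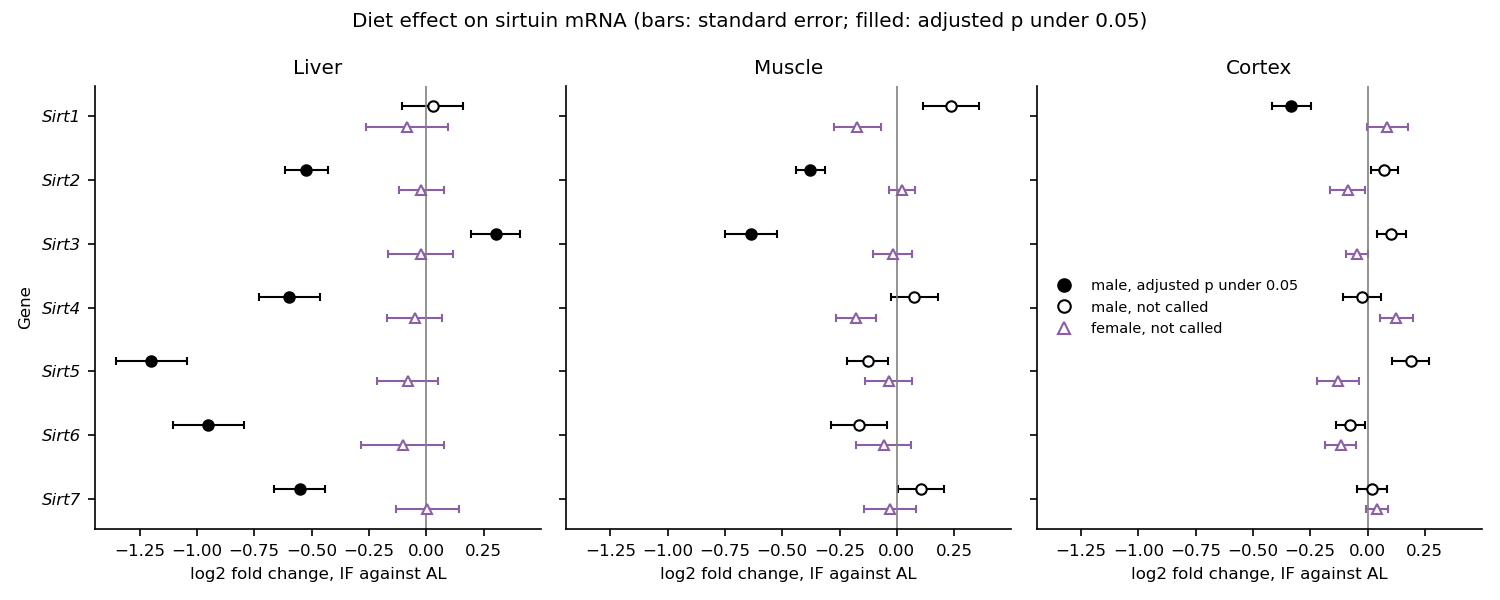
Log2 difference of IF against AL (edgeR, bars standard errors) for each sirtuin in liver, muscle and cortex, male and female mice apart; filled points passed an adjusted p under 0.05. In male liver 5 filled points lie below 0 and Sirt3 above, from -1.20 for Sirt5 to 0.30, and no female difference is filled. The directions of the filled points held with library totals.

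Cell type markers and the mitochondrial share were measured in the same male livers; marker counts stand beside 23.5% of all genes called higher and 21.1% lower. The mitochondrially encoded share of counts had a median of 20.6% in AL livers (14.5 to 25.1%) and 10.7% in IF livers (8.76 to 13.9%). Erythrocyte markers summed to 576.6 ± 193.1 CPM in AL and 2576 ± 2166 in IF mice, with 3 of 5 called higher and Hba-a1 the most abundant. Endothelial markers summed to 50.03 ± 8.76 and 82.9 ± 16.8 CPM (3 of 5 higher, Kdr most abundant) and macrophage markers to 68.1 ± 10.5 and 108.5 ± 64.8 (1 of 5 higher, led by Csf1r in AL and C1qa in IF). Hepatocyte markers, led by Alb, stood at 61676 ± 9077 and 59723 ± 7293 CPM, with 1 of 6 higher and 1 lower. Adipocyte markers went from 31.01 ± 5.27 to 14.8 ± 4.38 CPM (1 of 2 tested lower; Lep at 0 in IF livers). The astrocyte list, whose Aldh1l1 is a liver gene, summed to 851.6 ± 73.3 and 1254 ± 161.0 CPM (3 of 4 tested higher, 1 lower), the neuron list to 7.005 ± 1.83 and 12.3 ± 2.45 (2 of 3 tested higher, led by Syt1, with Slc17a7 at 0 in AL) and the oligodendrocyte list to 20.3 ± 2.77 and 14.2 ± 1.51 (1 higher and 2 lower of 4 tested, led by Cnp, with Mobp at 0). Muscle fibre markers summed to 0.583 ± 0.6246 and 1.70 ± 2.70 CPM (none tested; Mb at 0 in IF). In bulk tissue, fewer cells of a type and less RNA per cell cannot be told apart, and the part of these differences in the sirtuin results was not tested.

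The genes around the sirtuins in NAD metabolism were looked at in male liver as well, where 23.5% of all genes tested were called higher and 21.1% lower. Of 14 tested genes of NAD supply (16 in the table), 3 rose and 8 fell, with a list median of -0.49 against 0.06 for all genes. Nampt, the rate-limiting enzyme of NAD salvage, rose from 22.0 ± 1.71 to 97.7 ± 15.7 CPM without overlap (2.06 ± 0.11, adjusted p = 8.28e-13). Nmnat3, which makes NAD in mitochondria, fell from 7.89 ± 1.91 to 2.75 ± 1.009 CPM without overlap (-1.61 ± 0.22, adjusted p = 1.82e-06). Kynu, kynureninase of the de novo route, fell from 100.5 ± 13.8 to 49.8 ± 11.6 CPM (-1.10 ± 0.13, adjusted p = 3.59e-07). Nicotinamide clearance had 2 of 3 genes lower and a median of -0.69, with the aldehyde oxidases Aox3 at -0.93 ± 0.16 (adjusted p = 5.68e-05) and Aox1 at -0.69 ± 0.20 (adjusted p = 0.00811). Other consumers of NAD had 1 of 8 higher and 3 lower (median -0.26), the lower ones being the poly-ADP-ribose polymerases Parp3, from 85.7 ± 17.4 to 38.4 ± 12.2 CPM (-1.26 ± 0.16, adjusted p = 8.90e-07), Parp2 (-0.63 ± 0.15, adjusted p = 0.00111) and Parp1 (-0.35 ± 0.099, adjusted p = 0.00616). With library totals Parp1 was not called (-0.25, adjusted p = 0.0800; range over 23 alternatives 0.00135 to 0.0800).

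The zinc-dependent deacetylases, which do not use NAD, had 2 of 11 higher and 4 lower in male liver (median -0.10), near the 44.6% of all genes called. Hdac2 fell from 22.5 ± 2.87 to 12.9 ± 1.99 CPM without overlap (-0.90 ± 0.13, adjusted p = 3.35e-06) and Hdac10 by 0.62 ± 0.12 (adjusted p = 0.000159), whereas Hdac4 rose (0.58 ± 0.13, adjusted p = 0.000956). Genes of nuclear substrates had 8 of 20 higher and 5 lower (median 0.22), against 23.5% and 21.1% of all genes. Foxo1, the forkhead factor of hepatic gluconeogenesis, rose from 13.6 ± 2.39 to 43.3 ± 4.24 CPM (1.57 ± 0.12, adjusted p = 2.17e-10), and Ppara, the fatty acid receptor of the fasting liver, from 10.4 ± 1.95 to 26.2 ± 7.05 (1.24 ± 0.16, adjusted p = 8.67e-07). Arntl, which encodes the clock factor BMAL1, fell from 20.1 ± 4.84 to 5.69 ± 1.45 CPM (-1.91 ± 0.16, adjusted p = 1.55e-09). The AL and IF ranges of these 3 genes did not overlap, a separation shown by 14.6% of all genes. The 3 were named for having the lowest adjusted p of their list. Genes of mitochondrial substrates had 9 of 18 higher and 1 lower (median 0.28), beside the same shares of all genes. Idh2, a SIRT3 target of the citrate cycle, rose from 47.4 ± 10.1 to 177.4 ± 20.02 CPM (1.82 ± 0.12, adjusted p = 2.94e-11), and Sdha of complex II rose from 85.1 ± 14.7 to 181.2 ± 16.8 (1.01 ± 0.11, adjusted p = 8.12e-08). The urea cycle gene Otc was the 1 that fell, from 382.0 ± 66.8 to 157.8 ± 23.9 CPM (-1.36 ± 0.14, adjusted p = 2.66e-08).

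Regulators of SIRT1 had 1 of 5 higher and 2 lower in male liver (median -0.04), where 44.6% of all genes were called. Usp22, a deubiquitinase that stabilises SIRT1, rose (0.46 ± 0.12, adjusted p = 0.00241) and Rps19bp1, which encodes the SIRT1 activator AROS, fell (-0.37 ± 0.12, adjusted p = 0.0126). Hic1, a repressor of the Sirt1 gene, was called lower (-0.72 ± 0.25, adjusted p = 0.0231) but not without AL mouse 3 (-0.57, adjusted p = 0.0719) or with library totals (-0.61, adjusted p = 0.0583), and its adjusted p over 23 alternatives ran from 0.0103 to 0.0719. The nucleolar partners of SIRT7 had 2 of 7 higher and 2 lower (median 0.01). Polr1a, the large subunit of RNA polymerase I, rose from 24.1 ± 5.64 to 41.6 ± 8.61 CPM (0.69 ± 0.13, adjusted p = 0.000102), and Gabpb1, a SIRT7 target that drives mitochondrial genes, fell from 15.5 ± 3.10 to 9.08 ± 1.84 (-0.87 ± 0.13, adjusted p = 1.26e-05). The call on the small nucleolar RNA-binding gene Rrp9 (-0.31 ± 0.12, adjusted p = 0.0340) held in 14 of 23 alternatives, whose adjusted p ran from 0.0151 to 0.186. The fits that lost it included library totals (-0.21, adjusted p = 0.186) and those without AL mouse 2 and IF mouse 10 together (0.0520), without AL mouse 3 (0.0664), 7 (0.0787) or 8 (0.0912) and without IF mouse 10 (0.0558), 12 (0.0504) or 16 (0.0585).

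In muscle of male mice Sirt2 and Sirt3 fell and the other 5 sirtuins did not pass the test. That was 2 of 7, where 23.0% of all genes tested were called and 11.6% called lower, and the sirtuin median was -0.13 against 0.01. Sirt2, which dominates this tissue, had 132.5, 142.0 and 160.8 CPM (lowest, median, highest) in the 8 AL and 97.6, 113.1 and 131.4 in the 8 IF muscles. Every IF muscle was below every AL muscle, and 1 of 7 sirtuins without overlap compares with 4.17% of all genes. The log2 difference of Sirt2 was -0.38 ± 0.063 (SE, adjusted p = 0.000172). Sirt3 went from 14.2, 15.5 and 17.3 CPM to 8.37, 9.40 and 15.2. The IF muscles were low, 7 of 8 below every AL muscle, and the highest reached into the AL range, with a log2 difference of -0.64 ± 0.11 (adjusted p = 0.000366). Both calls and directions held in all 23 alternatives, including library totals, which turned the split of all called genes from 1726 higher and 1737 lower to 2553 and 1073. Sirt1 had 4.95 ± 0.95 CPM in AL and 6.13 ± 0.837 in IF muscle (0.23 ± 0.12, adjusted p = 0.172), and the remaining 4 had log2 differences between -0.17 and 0.11 with adjusted p from 0.328 to 0.643.

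The share of Sirt2 in the summed sirtuin mRNA per length was 66.4 ± 2.19% in male IF muscle, and the sum went from 40.2 ± 1.81 to 34.6 ± 3.34 CPM per kilobase (SD, n = 8 each). Adipocyte markers moved with the diet in the same libraries, from 343.8 ± 174.1 to 1590 ± 983.8 summed CPM, with 4 of 5 called higher and Fabp4 the most abundant. Marker counts in male muscle stand beside 23.0% of all genes called and 11.6% called lower (1726 higher and 1737 lower of 15025). Muscle fibre markers, led by Acta1, stood at 124780 ± 2817 and 121230 ± 8320 CPM, with 2 of 6 called lower. The hepatocyte list, carried by Cyp2e1, went from 6.22 ± 3.93 to 96.7 ± 57.2 CPM (1 of 2 tested higher). The astrocyte list went from 23.9 ± 3.04 to 35 ± 4.72 (2 of 3 tested higher). Its most abundant member, Aqp4, had means of 10.7 and 14.8 CPM. Macrophage markers (40.7 ± 11.3 and 33.1 ± 9.69 CPM) and endothelial markers (146.1 ± 14.7 and 147.7 ± 20.9) each had 1 of 5 called lower, and no erythrocyte, oligodendrocyte or neuron marker was called by edgeR (sums of 391.0 ± 207.0 and 429.8 ± 116.7, 46.7 ± 20.1 and 49.3 ± 17.0, and 1.64 ± 0.395 and 1.90 ± 0.459 CPM; Mobp and Gad1 at 0 in IF). The part of these shifts in the muscle results was not tested.

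The counts of the related lists in male muscle stand beside 23.0% of all genes called there, and whether the lists differ between tissues was not tested. NAD supply had 0 of 11 tested genes higher and 2 lower (median -0.04 against 0.01 for all genes). Nmrk2, the nicotinamide riboside kinase of striated muscle, fell from 202.5 ± 54.3 to 96.7 ± 27.9 CPM (-1.14 ± 0.20, adjusted p = 0.000994). Other NAD consumers had 1 of 7 higher (median -0.00), the tankyrase Tnks, from 9.03 ± 1.10 to 12.5 ± 1.16 CPM without overlap (0.40 ± 0.081, adjusted p = 0.00115). Nicotinamide clearance had 1 of 2 higher (median 0.40), Aox1 (0.36 ± 0.099, adjusted p = 0.0111). The zinc-dependent deacetylases had 1 of 11 higher and 2 lower (median 0.07). Hdac11 fell (-0.50 ± 0.093, adjusted p = 0.000572), whereas the calls on Hdac5 (-0.27 ± 0.083, adjusted p = 0.0212) and Hdac4 (0.48 ± 0.15, adjusted p = 0.0264) held in 21 and 20 of 23 alternatives. Hdac5 was not called with library totals (adjusted p = 0.0817) or without AL mouse 1 (0.0530), and Hdac4 not with no filter on low counts (0.0734) or without AL mouse 4 (0.0501) or IF mouse 15 (0.0513); over the alternatives the adjusted p ran from 0.00947 to 0.0817 and from 0.00355 to 0.0734.

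Nuclear substrates had 5 of 19 genes higher and 5 lower in male muscle (median -0.01), where 23.0% of all genes were called. Arntl fell from 21.1 ± 3.14 to 11.1 ± 2.77 CPM (-1.0 ± 0.13, adjusted p = 2.99e-05), its partner Clock from 16.6 ± 2.11 to 12.2 ± 1.43 (-0.51 ± 0.084, adjusted p = 0.000152) and Trp53 from 22.1 ± 2.18 to 17.1 ± 1.08 (-0.45 ± 0.068, adjusted p = 7.08e-05). None of the 3 genes overlapped between the diets, a separation shown by 4.17% of all genes. The 3 were named for having the lowest adjusted p of their list. Mitochondrial substrates had 4 of 15 higher and 2 lower (median 0.06). Acss1 rose (0.74 ± 0.13, adjusted p = 0.000723) and Got2 fell (-0.37 ± 0.061, adjusted p = 0.000148). Regulators of SIRT1 had 2 of 5 lower (median -0.02), Rps19bp1 (-0.30 ± 0.077, adjusted p = 0.00685) and Hic1 (-0.92 ± 0.28, adjusted p = 0.0298), of which Hic1 held its call in 15 of 23 alternatives (adjusted p 0.00344 to 0.0648). Hic1 lost it with no filter on low counts (0.0648), without AL mouse 3 (0.0625) or 7 (0.0525) and without IF mouse 11 (0.0550), 13 (0.0549), 14 (0.0561), 15 (0.0504) or 16 (0.0584). Nucleolar partners had 1 of 7 higher (median 0.12), the helicase Ddx21 (0.22 ± 0.063, adjusted p = 0.0152). Ankrd24, which starts 743 bases from Sirt6 on the other strand, was lower in IF muscle (-0.34 ± 0.10, adjusted p = 0.0170), a call lost with library totals (-0.26, adjusted p = 0.0613; range over 23 alternatives 0.00283 to 0.0613).

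In cortex of male mice Sirt1 alone was called among the sirtuins, and it was lower under IF. That was 1 of 7, where 7.21% of all genes tested were called and 3.43% called lower, and the sirtuin median was 0.02 against -0.00. That background was itself unsteady: the 1332 genes called became 638 without AL mouse 2, 2060 without IF mouse 12 and 294 with the omitted library put back. Sirt1 had 11.8, 13.4 and 15.04 CPM (lowest, median, highest) in 7 AL cortices and 8.66, 10.8 and 12.2 in 8 IF cortices. The IF libraries were low, 8 of 8 below the AL median and 7 of 8 below every AL library, so the groups overlapped through 1 mouse, and none of the 7 sirtuins separated the diets where 1.01% of all genes did. The log2 difference was -0.33 ± 0.084 (SE, adjusted p = 0.0228) with TMM and -0.34 (adjusted p = 0.0229) with library totals. The call was lost without AL mouse 2 (-0.31, adjusted p = 0.0583) or AL mouse 3 (-0.31, adjusted p = 0.0538), without AL mouse 2 and IF mouse 10 together (-0.29, adjusted p = 0.0893), and with the omitted library put back (-0.30, adjusted p = 0.0711). It was also lost with the replicate number as a block (-0.35, adjusted p = 0.0674), though mice sharing a number are different animals. Over 23 alternatives the adjusted p ran from 0.00358 to 0.0893 and the log2 difference from -0.36 to -0.29. Sirt5 stood at 10.3 ± 1.16 and 11.6 ± 0.7003 CPM (0.19 ± 0.081, adjusted p = 0.156), and the other 5 had log2 differences between -0.07 and 0.10 with adjusted p from 0.344 to 0.903.

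Marker counts in male cortex stand beside 7.21% of all genes called and 3.43% called lower (699 higher and 633 lower of 18462). Oligodendrocyte markers rose there, from 5768 ± 968.4 to 8338 ± 1377 summed CPM, with 5 of 6 called higher and Mbp the most abundant. Sirt2, which is abundant in that cell type, had 176.9 ± 15.5 and 184.2 ± 6.32 CPM (0.07, adjusted p = 0.490). Neuron markers stood at 7972 ± 401.2 and 8175 ± 474.2 CPM (0 of 6 called by edgeR; Snap25 most abundant), astrocyte markers at 1880 ± 185.6 and 1767 ± 167.2 (1 of 5 lower; Slc1a2), microglia markers at 184.9 ± 20.1 and 176.2 ± 15.7 (0 of 5; Csf1r) and endothelial markers at 63.0 ± 4.75 and 53.1 ± 5.24 (0 of 5; Pecam1). Erythrocyte markers summed to 287.4 ± 103.0 and 266.3 ± 54.1 CPM (0 of 5), the fibre list to 19.7 ± 2.82 and 17.3 ± 2.796, and the adipocyte list to under 1 CPM in every library (none tested; Cfd at 0 in AL). The hepatocyte list, in cortex Ttr, a choroid plexus transcript, had 542.5 ± 1147 and 625.5 ± 1232 CPM, and Serpina1a was at 0 in AL cortex. Their part in the Sirt1 result was not tested.

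Among the related lists in male cortex, where 7.21% of all genes were called, the zinc-dependent deacetylases had 1 of 11 higher and 2 lower, NAD supply 1 of 13 higher, other NAD consumers 1 of 7 lower, nuclear substrates 1 of 18 higher and 2 lower, and the nucleolar partners 1 of 7 higher. Nicotinamide clearance (3 genes), regulators of SIRT1 (5) and mitochondrial substrates (17) had 0 called by edgeR. Arntl, the clock gene called in all 3 tissues of male mice, fell from 34.8 ± 4.93 to 24.6 ± 2.89 CPM in cortex (-0.48 ± 0.085, adjusted p = 0.00357), and this call held in 23 of 23 alternatives (adjusted p 1.48e-05 to 0.0446). The other 8 called genes were Hdac10, Hdac9, Hdac2, Nmnat3, Tnks2, Clock, Foxo4 and Polr1a, with log2 differences of 0.32, -0.41, -0.19, 0.54, -0.24, -0.25, 0.26 and 0.25. Their adjusted p lay between 0.0132 and 0.0439. Each of them lost the call in some alternative: Foxo4 kept it in 7 of 23 and Polr1a in 21. Without AL mouse 2, for instance, Foxo4 and Hdac2 (adjusted p = 0.0900 each), Nmnat3 (0.0825), Clock (0.0777), Hdac10 (0.0629) and Hdac9 (0.0612) were not called. With the omitted library put back none of the 8 was called, at adjusted p from 0.0618 for Nmnat3 to 0.168 for Hdac2.

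In female mice no sirtuin differed between the diets by edgeR in any tissue. The counts were 0 of 7 in liver, muscle and cortex, also at an unadjusted p under 0.05 and with DESeq2. Few genes of any kind were called in these comparisons: 0% in liver (0 of 15938; 919 at an unadjusted p under 0.05 and 6 with DESeq2), 0.00653% in muscle (1 of 15308; 1644 and 91) and 0.0109% in cortex (2 of 18403; 2069 and 73). Without AL mouse 26 the genes called in female cortex went from 2 to 254 (202 above and 52 below 0), again with 0 of 7 sirtuins. Log2 differences of the sirtuins ran from -0.18 for Sirt4 in muscle (adjusted p = 0.478) to 0.13 for Sirt4 in cortex (adjusted p = 0.498). Their medians were -0.05 in liver, -0.04 in muscle and -0.05 in cortex, against -0.01, -0.02 and 0.00 for all genes.

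Female levels of the members called in male mice lay close between the diets. Sirt5 in liver had 11.3, 14.2 and 17.5 CPM (lowest, median, highest) in 8 AL and 10.3, 13.2 and 16.3 in 8 IF mice. Those ranges overlapped almost throughout. Sirt2 had 89.4 ± 11.8 and 85.5 ± 8.35 CPM in female liver and 133.1 ± 6.32 and 128.8 ± 7.62 in female muscle, and Sirt3 had 13.2 ± 1.34 and 12.4 ± 1.24 in female muscle (SD, n = 8 each). Sirt1 in female cortex stood at 11.3 ± 1.38 and 12.03 ± 2.08 CPM. No gene of the 8 related lists and no marker of the 9 cell types was called in female mice by edgeR with all libraries in the fit. The marker sums that differed between male groups were 575.7 ± 378.4 and 539.0 ± 269.1 CPM for female liver erythrocytes, 481.0 ± 280.0 and 382.7 ± 221.6 for muscle adipocytes, and 7486 ± 1303 and 6748 ± 981.6 for cortex oligodendrocytes.

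Whether the diet effect itself differed between the cohorts was tested as the female minus the male log2 difference. In liver 5 of 7 sirtuins differed, all above 0, where 23.7% of all genes were called and 12.8% called above 0, and the sirtuin median was 0.58 against -0.04. The 5 were Sirt5 (1.15 ± 0.21, adjusted p = 7.14e-05), Sirt6 (0.88 ± 0.24, adjusted p = 0.00551), Sirt7 (0.59 ± 0.18, adjusted p = 0.0117), Sirt4 (0.58 ± 0.18, adjusted p = 0.0128) and Sirt2 (0.54 ± 0.13, adjusted p = 0.00193). Scaling mattered here: library totals moved the median of all genes by -0.17, turned the split of calls from 2265 above and 1919 below 0 to 1481 and 2771, and left Sirt5 (0.99, adjusted p = 0.000197) and Sirt6 (0.72, adjusted p = 0.0373) called. The difference of Sirt3, the member that rose in male liver, was -0.29 and did not pass (adjusted p = 0.256). Over the 3 alternatives the adjusted p ran up to 0.0574 for Sirt2, 0.114 for Sirt4 and 0.107 for Sirt7.

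In muscle 2 of 7 sirtuins differed between the cohorts, both above 0, where 14.2% of all genes were called and 7.38% called above 0. They were Sirt2 (0.42 ± 0.082, adjusted p = 0.000660) and Sirt3 (0.64 ± 0.15, adjusted p = 0.00289), and the sirtuin median was 0.11 against -0.01. With library totals, which moved the median of all genes by -0.16 and the split of calls from 1207 above and 1107 below 0 to 522 and 2563, Sirt2 and Sirt3 kept their calls at 0.26 (adjusted p = 0.0165) and 0.47 (adjusted p = 0.0243). Sirt1 (-0.55, adjusted p = 0.0206) and Sirt4 (-0.40, adjusted p = 0.0429) were then called as well. In cortex the count was 0 of 7 by edgeR, with 2 at an unadjusted p under 0.05, where 2.03% of all genes were called. Sirt1 had the widest difference there, 0.42 ± 0.12 (adjusted p = 0.0579; range over 3 alternatives 0.0609 to 0.0952), and the test did not tell the cohorts apart there. Sex and cohort cannot be told apart, since all male mice belong to 1 cohort and all female mice to another whose age and regimen the labels do not give.

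The diet effects of genes in the related lists were compared between the cohorts too. In liver, where 23.7% of all genes were called, above and below 0 were 6 and 2 of 15 genes of NAD supply (median 0.32 against -0.04), 4 and 0 of 8 other NAD consumers (0.33), 3 and 0 of 11 zinc-dependent deacetylases (0.07), and 1 and 0 of 3 genes of nicotinamide clearance (0.37). Nuclear substrates had 3 above and 6 below 0 of 20 genes (-0.16) and mitochondrial ones 1 and 4 of 18 (-0.19). These list counts were made with TMM and not with library totals, which moved the split of all genes as given above. The deacetylases (3 of 11) and mitochondrial substrates (5 of 18) were near the share over all genes. Regulators of SIRT1 had 1 and 1 of 5 and the nucleolar partners 2 and 0 of 7. In muscle, where 14.2% of all genes were called, those of the 8 lists were 2 and 0 of 11 zinc-dependent deacetylases, 1 and 0 of 14 NAD supply genes, 0 of 2 clearance genes, 0 and 1 of 8 consumers, 1 and 0 of 5 regulators, 5 and 4 of 19 nuclear and 2 and 3 of 15 mitochondrial substrates, and 1 and 0 of 7 nucleolar partners. In cortex, with 2.03% of all genes called, 1 deacetylase lay above 0 and 1 gene of NAD supply below.

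The tissues of the male mice differed in how their sirtuins responded to the diet, tested as the difference between 2 tissues' diet effects with the mouse as a block. Between muscle and liver 5 of 7 differed, where 31% of all genes did. Sirt4, Sirt5, Sirt6 and Sirt7, which fell in liver and did not pass the test in muscle, had diet effects that differed (muscle minus liver) by 0.72 ± 0.16 (adjusted p = 0.000497), 1.11 ± 0.16 (adjusted p = 2.21e-06), 0.82 ± 0.18 (adjusted p = 0.000716) and 0.69 ± 0.14 (adjusted p = 0.000142). Sirt3, which rose in liver and fell in muscle, had the opposite sign at -0.91 ± 0.15 (adjusted p = 1.06e-05). Sirt2, which fell in both tissues, was not called. These 5 calls held with library totals and RLE size factors.

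Between cortex and liver 5 of 7 differed as well, where 26.7% of all genes did, and Sirt5 had the largest cortex minus liver difference of the 7 at 1.45 ± 0.17 (adjusted p = 4.58e-08). Sirt2 (0.62 ± 0.11, adjusted p = 4.47e-05), Sirt4 (0.65 ± 0.16, adjusted p = 0.00204), Sirt6 (0.92 ± 0.18, adjusted p = 0.000258) and Sirt7 (0.62 ± 0.14, adjusted p = 0.000685) were the others. Library totals moved the median of all genes by -0.12 and the split of calls from 2835 above and 2938 below 0 to 2000 and 3803, and they added Sirt1 (-0.48, adjusted p = 0.0389; range over 3 alternatives 0.0389 to 0.126). Between cortex and muscle 3 of 7 differed, where 3.80% of all genes did: Sirt3 at 0.74 ± 0.15 (adjusted p = 0.00364), Sirt2 at 0.43 ± 0.11 (adjusted p = 0.0185) and Sirt1 at -0.58 ± 0.17 (adjusted p = 0.0400). The call on Sirt2 ended with library totals (0.36, adjusted p = 0.0799; range over 3 alternatives 0.00521 to 0.0799), which shifted the split of calls from 339 above and 483 below 0 to 162 and 625. In female mice 0 of 7 sirtuins had a tissue difference by edgeR, with 0, 0 and 1 at an unadjusted p under 0.05, where 0.00470%, 0% and 0.00470% of all genes were called for muscle against liver, cortex against liver and cortex against muscle.

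Across all 95 libraries each sirtuin had genes whose log2 CPM ran closely alongside it among 15853 genes searched. The libraries share large tissue differences, which such correlations mostly follow, and each is a description without a test. Sirt7 ran closest to Ganab (Pearson r = 0.989), Adra1b (0.989) and Cbs (0.988), and Sirt3 to Lrp1 (0.983), Scap (0.977) and Ap5z1 (0.973). For Sirt6 the 3 were Atf6b (0.974), Rmnd5b (0.972) and Gnptg (0.970), and for Sirt2 they were Gsk3a (0.973), Bag6 (0.960) and Zbtb18 (0.960). Sirt4 was most like Stx16 (0.958), Zfp692 (0.956) and Cpsf7 (0.954), and Sirt1 most like Srek1 (0.914), Ggnbp2 (0.913) and Prpf39 (0.907). Sirt5 had the loosest partners, Pet100 (0.750), Fbxo36 (0.748) and 2700046G09Rik (0.724). Among the members, Sirt3 and Sirt7 were the most alike pair (0.964) and Sirt2 and Sirt7 the least (-0.310). Within liver, where deviations from group means were used so that diet and sex differences drop out, Sirt2 ran with Sirt7 (0.724, n = 32) and Sirt6 (0.706), and Sirt1 against Sirt5 (-0.380). In cortex the widest such value was -0.637 for Sirt2 and Sirt4 (n = 31). All these values used library totals without TMM, so a shift in a library's make-up can move the members together. The part of such shifts was not tested.

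The 7 genes lie on 5 chromosomes of GRCm39. Sirt1 (ENSMUSG00000020063) spans 63154784 to 63217483 on the minus strand of chromosome 10, which also carries Sirt6 (ENSMUSG00000034748, 81457619 to 81463631, minus). Chromosome 7 carries Sirt2 (ENSMUSG00000015149, 28466160 to 28488086, plus) and Sirt3 (ENSMUSG00000025486, 140443579 to 140462222, minus). Sirt4 (ENSMUSG00000029524) is at 115616069 to 115622784 on chromosome 5, minus strand, Sirt5 (ENSMUSG00000054021) at 43518972 to 43548679 on chromosome 13, plus strand, and Sirt7 (ENSMUSG00000025138) at 120509198 to 120516066 on chromosome 11, minus strand. Sirt5, the member with the deepest fall in male liver, and Sirt6 overlap no other annotated gene.

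Promoter windows show what the members share upstream. They come from RefSeq, run from 250 bases before to 50 after the transcript start, and were matched for all 7 sirtuins in 9 windows (2 each for Sirt3 and Sirt6, 1 for each other member), taken from the GRCm38.p6 table and placed on GRCm39 by exact match. The GC box (GGGCGG, searched on both strands like each motif here) was in 6 of the 9 windows, 1 for each sirtuin but Sirt4, and in 35.9% of 32544 windows. The CCAAT box (CCAAT) was in 3 of the 9, 1 each for Sirt2, Sirt3 and Sirt5, and in 37.4% of all windows. The other Sirt3 window (chr7:140462173-140462472, minus strand) and the Sirt4 window held none of the motifs searched. An E-box (CACGTG), the letters bound by CLOCK and BMAL1, was found for Sirt1 and in 7.17% of windows. The nuclear respiratory factor 1 site, a motif of 10 letters, was in 1 of the 2 windows of Sirt6 and in 0.974% of all windows. None of the windows held TGACGTCA (cAMP response element, 1.80%), TCAAGGTCA (estrogen-related receptor element, 0.412%) or GTAAACA (forkhead, 3.66%). The windows of 3 members are printed 5′ to 3′ with motif matches in capitals: Sirt5 for its fall in liver (chr13:43518761-43519060, plus strand), Sirt3 because Psmd13 starts inside the window on the other strand (chr7:140461733-140462032, minus strand), and Sirt1 for its E-boxes (chr10:63174765-63175064, minus strand). Their GC contents were 62.0%, 64.7% and 79.0%, against a median of 53.0% over all windows. The Sirt1 window lies inside the span of the gene given above and not at its upstream end at 63217483. It belongs to another of the gene's transcript starts, and which start is used the most was not tested. In this window a pair of GC boxes overlaps. A match describes letters and shows no binding.
Sirt5: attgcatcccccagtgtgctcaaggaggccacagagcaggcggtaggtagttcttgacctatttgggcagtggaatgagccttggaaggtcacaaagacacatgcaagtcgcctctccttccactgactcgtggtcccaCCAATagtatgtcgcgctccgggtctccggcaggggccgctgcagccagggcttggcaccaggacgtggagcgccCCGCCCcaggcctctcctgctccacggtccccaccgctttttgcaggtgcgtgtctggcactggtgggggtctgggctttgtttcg
Sirt3: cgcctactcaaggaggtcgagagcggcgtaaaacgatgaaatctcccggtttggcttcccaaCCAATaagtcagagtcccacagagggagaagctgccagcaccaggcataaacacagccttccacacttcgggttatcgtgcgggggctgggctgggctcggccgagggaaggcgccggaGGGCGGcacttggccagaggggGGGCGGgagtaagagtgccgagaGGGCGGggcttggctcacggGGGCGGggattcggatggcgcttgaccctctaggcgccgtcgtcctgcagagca
Sirt1: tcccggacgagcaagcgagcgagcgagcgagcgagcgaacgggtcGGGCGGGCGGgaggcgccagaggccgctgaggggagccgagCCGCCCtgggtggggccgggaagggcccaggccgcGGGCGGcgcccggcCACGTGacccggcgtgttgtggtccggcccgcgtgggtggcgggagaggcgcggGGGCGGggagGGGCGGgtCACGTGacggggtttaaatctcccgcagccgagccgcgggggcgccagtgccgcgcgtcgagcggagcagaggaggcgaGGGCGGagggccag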

How the data were processed

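Raw read counts per gene were used as the authors deposited them: per the paper's methods, reads had been aligned to the mouse genome GRCm39 with HISAT2, and featureCounts then gave a count for every gene and library, with no scaling. CPM were computed from library totals. Differential tests used edgeR (filterByExpr, TMM, robust quasi-likelihood F test, Benjamini-Hochberg over all genes tested), within each tissue and cohort for the diet, over both cohorts for the female minus male difference, and over all tissues with the mouse as a block for tissue differences. DESeq2 served as an alternative for the diet comparisons and was not run for differences between cohorts or tissues. AL and IF mice with the same replicate number are different animals, so no pairing was used. Tissues were assigned to a mouse by the library numbers alone. The library CAL1 was omitted. Standard errors are the log2 difference divided by the square root of F. Lists were described by counts and medians. Named genes were up to 3 called genes per list and tissue with the lowest adjusted p and a mean of at least 1 CPM. Genes overlapping a sirtuin or starting near one were looked up by position, and those named were picked after their values were seen. The members and lists were chosen with earlier results of these data known.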

Additional observations from a re-analysis of the deposited data

Results flagged for a closer look

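In 7 of 84 combinations of sirtuin and group a library stood apart from the others of its group; chance alone would give about 1 in 20. In liver of female AL mouse 26 the CPM were 20.9 for Sirt1, 117.0 for Sirt3 and 26.34 for Sirt4, and that library also had the highest mitochondrial share of its group. The others were Sirt2 at 112.4 CPM in muscle of female IF mouse 40, Sirt4 at 10.79 in muscle of male IF mouse 10, Sirt5 at 15.1 in cortex of female IF mouse 38 and Sirt6 at 37.3 in cortex of female AL mouse 30. The 7 diet effects that differed between the cohorts were, as female minus male log2 differences, 0.5354 for Sirt2, 0.5835 for Sirt4, 1.151 for Sirt5, 0.8829 for Sirt6 and 0.5908 for Sirt7 in liver, and 0.4177 for Sirt2 and 0.6356 for Sirt3 in muscle. The 13 that differed between tissues of male mice were -0.9131 for Sirt3, 0.7188 for Sirt4, 1.111 for Sirt5, 0.8233 for Sirt6 and 0.6947 for Sirt7 (muscle minus liver), 0.6198 for Sirt2, 0.6462 for Sirt4, 1.445 for Sirt5, 0.9176 for Sirt6 and 0.619 for Sirt7 (cortex minus liver), and -0.5838 for Sirt1, 0.4301 for Sirt2 and 0.7381 for Sirt3 (cortex minus muscle). The omitted cortex library had 213.3 CPM of Xist.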

How the results depend on the processing

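Library totals in place of TMM and GENCODE exon lengths in place of the table's lengths were alternatives added after the data had been seen. The count of sirtuins called in male cortex was 1, and it became 2 at an unadjusted p under 0.05, 0 with the replicate number as a block (Sirt1 at -0.347, adjusted p = 0.0674), 0 without AL mouse 2 and IF mouse 10, 0 with the omitted library put back, and from 0 to 1 when libraries were left out in turn. In male liver that range was 5 to 6 and in male muscle 2 to 2. With library totals the sirtuins called for the female minus male difference went from 5 to 2 in liver and from 2 to 4 in muscle. Library totals reversed the sign of 7 tissue differences in AL mice: in male mice Sirt1 between cortex and liver (0.20), and Sirt2 (0.31) and Sirt5 (0.0205) between cortex and muscle; in female mice Sirt4 between cortex and liver (0.0355), and Sirt1 (0.60), Sirt2 (0.56) and Sirt5 (0.44) between cortex and muscle. The cause was not tested. With the block the calls on Rrp9 in male liver (adjusted p = 0.0683) and on 8 of the 9 genes called in the related lists of male cortex, all but Arntl, were not made. Residuals of AL and IF mice sharing a number correlated at -0.303 to 0.186 over the male tissues, and in no tissue was every library closest to its own number. Residuals of 2 tissues sharing a male mouse number had median correlations of 0.0202 (liver and muscle), 0.00868 (liver and cortex) and 0.0123 (muscle and cortex). Without the mouse block the male tissue differences in diet effect still had 5, 5 and 3 sirtuins called, in that order. With GENCODE exon lengths the shares were 51.3% for Sirt7 in male AL liver and 74.7% and 47.8% for Sirt2 in male AL muscle and cortex, while Sirt6 went from 5.21% to 2.46% in liver, from 4.77% to 2.29% in muscle and from 12.7% to 6.33% in cortex. Of 51 called genes taken from the related lists and neighbours, by comparison, 34 were called under every alternative. All genes called in male cortex numbered 1332, and 382 with the replicate block, 498 without mice 2 and 10, 294 with the omitted library, 2259 with DESeq2 and from 638 to 2060 when libraries were left out in turn. In female cortex the 2 became 0 with the block or library totals and from 0 to 254 when libraries were left out in turn, and in female muscle the 1 became 5 with no filter on low counts and from 1 to 3 when libraries were left out.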
